A study of Oryctolagus cuniculus with 8 samples.

Results

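Cells were grown from the inguinal subcutaneous fat (ScASCs) and from the fat pad below the kneecap (infrapatellar, IPFSCs) of 4 male New Zealand white rabbits, 4 months old and with no treatment described, and their RNA was sequenced at passage 1, with 1 library per fat depot and rabbit (n = 4 per cell type). Equal library numbers are read here as 1 rabbit, which the labels do not state. The cells were expanded from collagenase-digested tissue in serum-containing growth medium, with no sort described, so each library is a bulk culture, in which fewer cells of a type and less RNA per cell cannot be told apart. The genes described here are those of prostaglandin synthesis, breakdown, uptake and reception. They were taken by symbol from a list of 10, of which 8 (HPGD, PTGS1, PTGS2, PTGER2, PTGER4, PTGFR, PLA2G4A and SLCO2A1) have a row among the 20586 genes of the deposited table. PTGES and PTGIS have no row under these symbols and were not analysed here. The set was selected on the RPKM (reads scaled to gene length and to library size) of HPGD, which was known to be lower in IPFSCs. The difference of HPGD between the cell types is therefore a description without a test, and the other symbols were chosen by their role, with results of these libraries known.

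Prostaglandins are short-lived lipid signals that cells make from arachidonic acid, which the cytosolic phospholipase encoded by PLA2G4A frees from membranes. The cyclooxygenases encoded by PTGS1, expressed steadily in many tissues, and PTGS2, induced by growth factors and inflammatory cytokines, turn it into the precursor of all prostanoids. Prostaglandin E2 signals through receptors such as EP2 (PTGER2) and EP4 (PTGER4), which raise cAMP, and prostaglandin F2α through FP (PTGFR). The signal ends when the transporter encoded by SLCO2A1 takes prostaglandins up into the cell and the dehydrogenase encoded by HPGD oxidizes them. In joint tissues prostaglandin E2 is known as a mediator of pain and inflammation, and in fat prostaglandins are known to act on adipocyte differentiation.

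HPGD (ENSOCUG00000016289) was the member with the widest difference between the cell types. Its RPKM was 3.95, 19.0, 21.9 and 22.0 in ScASCs of rabbits 1 to 4 and 0.680, 0.327, 0.102 and 2.13 in IPFSCs. The IPFSC libraries all lay below the ScASC libraries, and the ScASC library of rabbit 1 stood apart from the other 3, close to the highest IPFSC library. The mean was 16.7 ± 8.63 RPKM in ScASCs against 0.809 ± 0.911 in IPFSCs (SD, n = 4), a ratio of means of 20.7. On the log2(RPKM + 1) scale, which understates changes of genes of low expression, IPFSCs differed from ScASCs by −3.18 (standard error 0.53). Without the ScASC library of rabbit 1 the ScASC mean was 21.0 ± 1.69 RPKM (SD, n = 3) and the log2 difference −3.72.

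The low values of HPGD rest on few reads. RPKM values of 1 gene in different libraries, multiplied by the relative depth, stood in whole-number ratios, and the smallest whole numbers of reads that give them, within 0.05 of a read, were 82, 326, 452 and 416 in the ScASC libraries and 13, 6, 2 and 40 in the IPFSC libraries. Over the 4 libraries this makes 1276 reads against 61. True numbers could be a common multiple of these. Taking the libraries of 1 number as 1 rabbit, ScASCs had 5.80 times the HPGD of IPFSCs in rabbit 1 (95% exact interval 3.21 to 11.4), 58.1 times in rabbit 2 (26.4 to 160), 215 times in rabbit 3 (59.2 to 1782) and 10.4 times in rabbit 4 (7.47 to 14.7). The intervals cover counting error only. The direction was the same in all 4 rabbits, which follows from the lack of overlap between the cell types in the gene chosen for this difference. By counting error alone the intervals of rabbits 1 and 4 did not reach those of rabbits 2 and 3. A difference between rabbits was not tested.

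**Figure D1:**
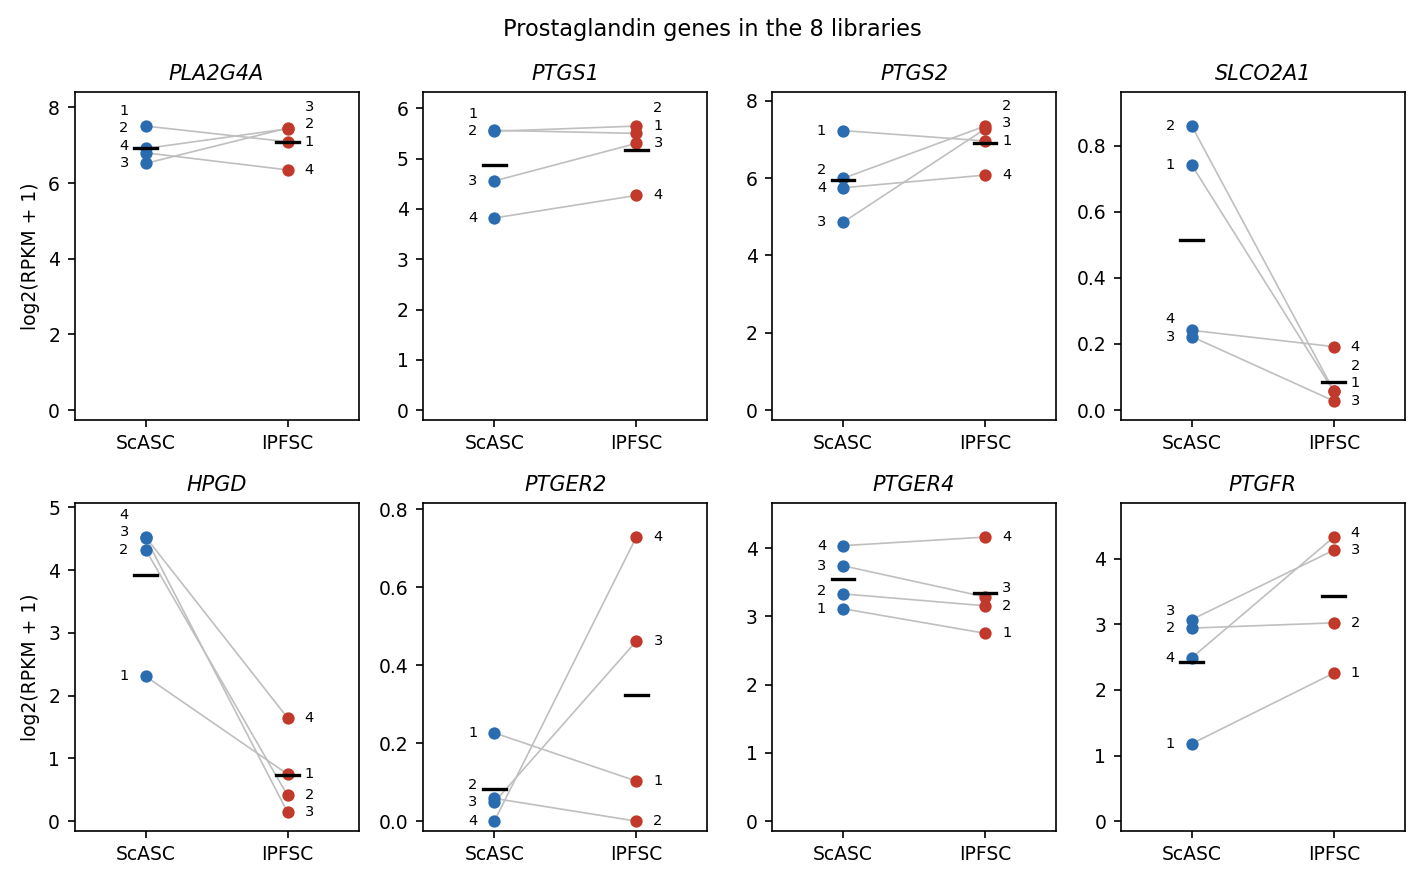
Level of each of the 8 prostaglandin genes as log2(RPKM + 1) in ScASC (blue) and IPFSC (red) libraries; each panel has its own vertical axis, points are libraries labelled 1 to 4, grey lines join libraries of the same number and black bars are means of 4. The HPGD panel shows every IPFSC library below every ScASC library and ScASC 1 at 3.95 RPKM below the other ScASC libraries, while SLCO2A1 and PTGER2 lie below 1 RPKM throughout.

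SLCO2A1 (ENSOCUG00000000025), the prostaglandin uptake transporter, was the other member whose libraries did not overlap between the cell types. Its RPKM was 0.671, 0.814, 0.166 and 0.182 in ScASCs and 0.0400, 0.0417, 0.0194 and 0.142 in IPFSCs of rabbits 1 to 4. The gap between the groups was narrow, from 0.142 in IPFSCs of rabbit 4 to 0.166 in ScASCs of rabbit 3. The smallest whole numbers of reads were 73, 73, 18 and 18 in ScASCs and 4, 4, 2 and 14 in IPFSCs. ScASCs had 16.8 times the SLCO2A1 of IPFSCs in rabbit 1 (95% exact interval 6.29 to 63.3), 19.5 times in rabbit 2 (7.31 to 73.6) and 8.57 times in rabbit 3 (2.05 to 76.1). In rabbit 4 the ratio was 1.28 with an interval of 0.601 to 2.78, which includes no difference. The mean of SLCO2A1 stayed below the RPKM of 1 that the comparison across genes required in at least 1 cell type. In the fit with no such minimum its log2 difference was −0.43 with an adjusted p of 0.203 in limma. The size depends on the pseudocount added before the log, and was −0.71 with 0.5 and −1.63 with 0.1 in place of 1.

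In all, 2 of the 8 members, HPGD and SLCO2A1, had cell types that did not overlap. Among the 11294 genes tested, 11.8% had cell types that did not overlap in either direction, and among the 4807 genes above 0 in a library but below the minimum, 1.44% lay wholly lower in IPFSCs. HPGD was chosen for this difference, so nothing is read from the count.

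The enzymes that supply prostaglandins were abundant in both cell types, and none passed the test. PLA2G4A, the phospholipase, had an RPKM of 181, 120, 90.7 and 110 in ScASCs and 135, 172, 174 and 80.4 in IPFSCs of rabbits 1 to 4. The groups overlapped, and the lowest library of all was an IPFSC library. Means were 125 ± 38.8 and 140 ± 43.8 RPKM (SD, n = 4), with a log2 difference of 0.15 (95% interval −0.50 to 0.79, adjusted p = 0.904 in limma). PTGS1, the steadily expressed cyclooxygenase, had 46.2, 45.6, 22.5 and 13.1 RPKM in ScASCs and 44.3, 49.1, 38.4 and 18.3 in IPFSCs. Rabbit 4 had the lowest PTGS1 in both cell types. Means were 31.9 ± 16.7 and 37.5 ± 13.5 RPKM (SD, n = 4), with a log2 difference of 0.31 (95% interval −0.70 to 1.31, adjusted p = 0.852 in limma). Its sign rests on the ScASC library of rabbit 4, without which the log2 difference was −0.041.

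PTGS2, the inducible cyclooxygenase, was at 149, 62.6, 28.0 and 52.7 RPKM in ScASCs and at 123, 161, 153 and 66.4 in IPFSCs of rabbits 1 to 4. It was higher in IPFSCs in rabbits 2, 3 and 4 and lower in rabbit 1, whose ScASC library was the highest of its group. Means were 73.0 ± 52.5 RPKM in ScASCs against 126 ± 43.0 in IPFSCs (SD, n = 4). The log2 difference of 0.96 had a 95% interval of −0.13 to 2.04 (adjusted p = 0.387 in limma), so that neither no difference nor a change of over 2-fold lies outside the interval. In every one of the 8 libraries PTGS2 stood above PTGS1, by a ratio of RPKM of 1.24 to 4.02 in ScASCs and 2.79 to 3.98 in IPFSCs.

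**Figure D2:**
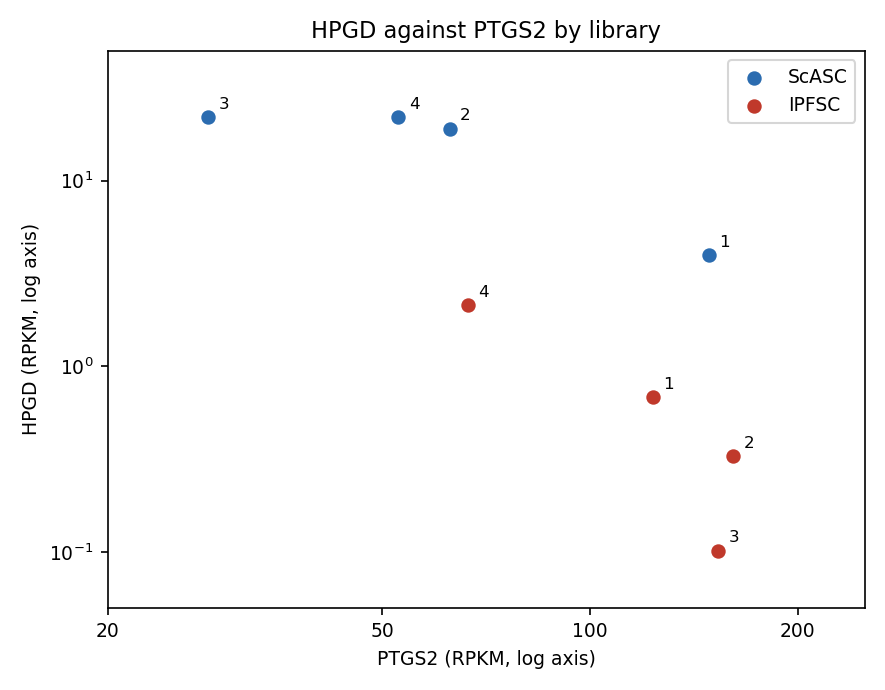
RPKM of HPGD against RPKM of PTGS2 in the 4 ScASC libraries (blue) and the 4 IPFSC libraries (red), on log axes, with the number of each library beside its point. ScASC 1 has the highest PTGS2 (149) and the lowest HPGD (3.95) of the ScASCs, and IPFSC 4 has the lowest PTGS2 (66.4) and the highest HPGD (2.13) of the IPFSCs.

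HPGD and the supplying enzymes had opposite extremes in 1 library of each cell type. Among ScASCs, rabbit 1 had the lowest HPGD and the highest PTGS2, PTGS1 and PLA2G4A. Among IPFSCs, rabbit 4 had the highest HPGD and the lowest PTGS2, PTGS1 and PLA2G4A. With 4 libraries in a cell type this is a description, and no correlation was computed. Neither pattern was particular to these genes. PTGER4 and PTGFR were also lowest in rabbit 1 among ScASCs and highest in rabbit 4 among IPFSCs. The early response genes NR4A1, FOSB and DUSP1 had the extremes of the supplying enzymes, highest in ScASCs of rabbit 1 and lowest in IPFSCs of rabbit 4. For every 100 RPKM of PTGS2 there were 2.65, 30.4, 78.2 and 41.8 RPKM of HPGD in ScASCs of rabbits 1 to 4 and 0.551, 0.203, 0.0664 and 3.20 in IPFSCs. On this ratio the groups overlapped, since the ScASC library of rabbit 1 lay below the IPFSC library of rabbit 4.

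The ScASC library of rabbit 1, which stood apart in HPGD, also stood apart in other genes. It had the lowest DCN (decorin, a stromal matrix proteoglycan) of its group, at 87.1 RPKM against 388 to 874 in the other 3. KRT8, a keratin of simple epithelia, was at 63.8 RPKM there and at 0.729 to 6.40 in the other 7 libraries, while the epithelial adhesion genes EPCAM and CDH1 were at 0 and 0.0372 RPKM in it. Among IPFSCs, rabbit 1 also had the lowest DCN, at 83.6 RPKM against 101 to 360 in the others. It had the highest KRT8 of the IPFSCs as well, at 5.99 RPKM against 0.729 to 1.49. The early response genes NR4A1, FOSB and DUSP1 were highest in rabbit 1 in both cell types. Others of this kind, NR4A2, NR4A3 and EGR1, were highest in rabbit 1 among ScASCs only. Among IPFSCs, NR4A2 and NR4A3 were highest in rabbit 3 and EGR1 in rabbit 4. The part of these differences in the values of HPGD and PTGS2 was not tested.

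Of the 3 receptor genes among the members, PTGER4 and PTGFR had the higher levels, and neither passed the test. PTGER4, which encodes EP4, had an RPKM of 7.65, 9.06, 12.4 and 15.4 in ScASCs and 5.74, 7.91, 8.75 and 16.9 in IPFSCs of rabbits 1 to 4. The 4 rabbits fell in the same order in both cell types. The means of 11.1 ± 3.48 and 9.83 ± 4.89 RPKM (SD, n = 4) gave a log2 difference of −0.22 (95% interval −0.92 to 0.49, adjusted p = 0.852 in limma). PTGFR, which encodes FP, had 1.27, 6.69, 7.41 and 4.62 RPKM in ScASCs and 3.78, 7.12, 16.5 and 19.1 in IPFSCs. It was higher in IPFSCs in all 4 rabbits, by 1.07-fold in rabbit 2 and by 2.23-fold to 4.13-fold in the others, and rabbit 1 was lowest in both cell types. Means were 4.998 ± 2.75 and 11.6 ± 7.34 RPKM (SD, n = 4), with a log2 difference of 1.01 (95% interval −0.23 to 2.26, adjusted p = 0.435 in limma). With the rabbit as a block its adjusted p was 0.0743 in limma.

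PTGER2, which encodes EP2, was near the limit of detection. Its RPKM was 0.170, 0.0412, 0.0342 and 0 in ScASCs and 0.0738, 0, 0.377 and 0.657 in IPFSCs, from whole numbers of reads of 10, 2, 2 and 0 and of 4, 0, 21 and 35. The 2 highest libraries were IPFSCs of rabbits 3 and 4, and the groups overlapped. Values were higher in ScASCs in rabbit 1, on 10 against 4 reads, and in rabbit 2, on 2 against 0. They were higher in IPFSCs in rabbits 3 and 4. No counting interval was computed for PTGER2, so no change of direction between rabbits is read from this. The mean of PTGER2 was below the minimum of 1 RPKM in both cell types, and it was not called in the fit with no minimum (adjusted p = 0.576 in limma).

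Apart from HPGD, 0 of the 5 tested members were called at an adjusted p under 0.05 in limma, and 0 had an unadjusted p under 0.05. Over all 11294 tested genes, 4.98% were called. The median log2 difference of the 6 tested members, HPGD among them, was 0.23, beside −0.0035 over all tested genes. HPGD passed the expression minimum through ScASCs only. A p that misses the threshold does not show that the cell types are alike, and the intervals of PTGS2 and PTGFR are wide. These intervals leave out the rabbit. With the rabbit as a block the standard error went from 0.44 to 0.14 for PTGS1 and from 0.31 to 0.11 for PTGER4. It went from 0.55 to 0.26 for PTGFR, from 0.48 to 0.41 for PTGS2 and from 0.28 to 0.25 for PLA2G4A. None of these members was called in that fit.

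The members' levels per length were then put in order within each cell type. In ScASCs the order of mean RPKM was PLA2G4A, PTGS2, PTGS1, HPGD, PTGER4, PTGFR, SLCO2A1 and PTGER2. Neighbours overlapped in their libraries except that PTGFR lay wholly below PTGER4, at up to 7.41 against 7.65 RPKM and above, and SLCO2A1 wholly below PTGFR. In IPFSCs the order was PLA2G4A, PTGS2, PTGS1, PTGFR, PTGER4, HPGD, PTGER2 and SLCO2A1. There, PTGS2 lay wholly above PTGS1 and PTGER4 wholly above HPGD, whereas PLA2G4A and PTGS2, PTGS1 and PTGFR, PTGFR and PTGER4, HPGD and PTGER2, and PTGER2 and SLCO2A1 overlapped.

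Among the other prostanoid genes, 1 of 7 tested was called, where 4.98% of all tested genes were, and nothing is read from this count. PTGFRN, an immunoglobulin superfamily protein known to bind FP and reduce its ligand binding, fell from 48.4, 62.4, 68.4 and 74.4 RPKM in ScASCs to 31.3, 41.7, 39.6 and 33.7 in IPFSCs of rabbits 1 to 4. The groups did not overlap. The log2 difference was −0.77 (standard error 0.15, adjusted p = 0.0211 in limma), and the call was lost when ScASC replicate 2, 3 or 4, or else IPFSC replicate 1 or 3, was left out (adjusted p = 0.0524 to 0.0636, range 0.00867 to 0.0636 with every alternative). PTGIR, the prostacyclin receptor, which raises cAMP, was at 4.66, 6.48, 9.95 and 6.08 RPKM in ScASCs and at 14.0, 9.62, 13.4 and 23.7 in IPFSCs. It was higher in IPFSCs in all 4 rabbits, and only the IPFSC library of rabbit 2 lay within the range of the ScASCs. Its log2 difference of 1.03 (95% interval 0.40 to 1.66) did not pass the adjustment over all genes (adjusted p = 0.0774 in limma, range 0.0534 to 0.177 with every alternative).

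The tested transporter genes outside the members, ABCC4 and SLCO3A1, had higher means in IPFSCs but did not pass the test without the rabbit as a block. ABCC4, which exports prostaglandins, had 5.60 ± 0.901 RPKM in ScASCs against 8.74 ± 1.91 in IPFSCs (SD, n = 4), a log2 difference of 0.55 (adjusted p = 0.124 in limma, and adjusted p = 0.0449 with the rabbit as a block). SLCO3A1, a transporter of the SLCO2A1 family, had 16.0 ± 2.28 and 22.7 ± 3.21 RPKM (SD, n = 4), a log2 difference of 0.48 (adjusted p = 0.0774 in limma, and adjusted p = 0.0257 with the rabbit as a block). Leaving out IPFSC replicate 1 also brought ABCC4 past the threshold (adjusted p = 0.0418, range 0.0418 to 0.264 over its alternatives), and leaving out ScASC replicate 3 did so for SLCO3A1 (adjusted p = 0.0469, range 0.0257 to 0.208). The difference between either gene and SLCO2A1 was not tested.

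None of the other tested enzymes passed the test, and few could be tested. Of 9 other synthase symbols listed, 3 had a row and 1 was tested. Of 7 other breakdown symbols, 3 had a row and 2 were tested. AKR1B1, an aldo-keto reductase that can form prostaglandin F2α, stood at 41.4 ± 2.01 RPKM in ScASCs against 39.4 ± 3.39 in IPFSCs (SD, n = 4), with a log2 difference of −0.07 (95% interval −0.26 to 0.12, adjusted p = 0.804 in limma). The reductases PTGR1 and ZADH2, which act on the products of HPGD, had log2 differences of −0.18 (95% interval −0.87 to 0.51, adjusted p = 0.885) and −0.25 (95% interval −0.55 to 0.06, adjusted p = 0.448) in limma. The low HPGD of IPFSCs stood beside levels of PTGR1 of 5.33 to 14.0 RPKM and of ZADH2 of 24.2 to 32.0 RPKM in the same libraries. HPGDS, which makes prostaglandin D2, is listed at 0 in all 8 libraries, and TBXAS1, the thromboxane synthase, was at 0 in 6 libraries and at most at 0.0294 RPKM.

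**Figure D3:**
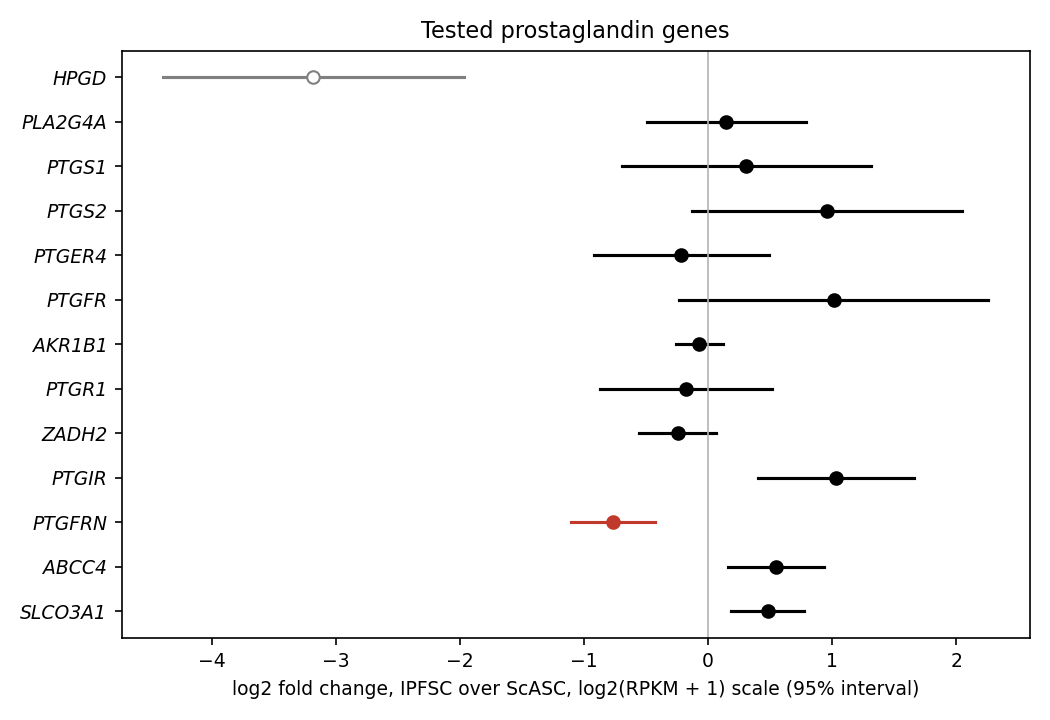
Log2(RPKM + 1) of IPFSCs minus that of ScASCs for the 13 tested prostaglandin genes, as points with 95% intervals from limma. Red marks an adjusted p under 0.05. The open grey point is HPGD, whose interval is drawn as a description and not read as a test, since the gene was chosen for its difference. HPGD lies at −3.18, PTGFRN at −0.77 is the one in red, and PTGIR, ABCC4 and SLCO3A1 have intervals above 0 without passing the adjustment over all genes.

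Genes before and after the prostaglandins in the pathway were described by list. Of 12 tested genes listed for the release and recycling of arachidonic acid, ANXA1 among them, 0 were called in limma. Of 11 tested genes listed for the cAMP response, CREB1 and PDE4 genes among them, 0 were called. The median log2 differences of the lists were −0.02 and 0.07. FAAH, which splits the arachidonate amide anandamide, was not called, with 3.59 ± 1.43 RPKM in ScASCs against 8.11 ± 2.65 in IPFSCs (SD, n = 4) and a log2 difference of 0.98 (adjusted p = 0.0912 in limma). It was called with the rabbit as a block and without IPFSC replicate 4 (adjusted p = 0.0440 and 0.0282, range 0.0282 to 0.236). Of 4 tested leukotriene and lipoxygenase genes 1 was called, which was ALOX15, a lipoxygenase that competes for the same fatty acid. Its RPKM was 0.0433, 0, 0.0435 and 0.0238 in ScASCs and 0.447, 0.784, 2.10 and 1.39 in IPFSCs, with no overlap and a log2 difference of 1.03 (adjusted p = 0.0419 in limma). It passed the expression minimum through IPFSCs only, and in the fit with no minimum its adjusted p was 0.0405 in limma. The call of ALOX15 was lost without any 1 of the ScASC libraries or without IPFSC replicate 2 or 4 (adjusted p = 0.0669 to 0.113, of 0.0118 to 0.113 over its alternatives), and without IPFSC replicate 3 it fell below the minimum and was not tested. EPHX1, an epoxide hydrolase, had a log2 difference of 0.59 (adjusted p = 0.242, and adjusted p = 0.0136 with the rabbit as a block, in limma, range 0.0136 to 0.451).

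Of 10 tested genes that induce or restrain PTGS2, 1 was called, which was IL1A, an inducer of PTGS2. It went from 12.7 ± 0.970 to 0.716 ± 0.358 RPKM (SD, n = 4), a log2 difference of −3.02 (adjusted p = 5.00e-05 in limma). It passed the expression minimum through ScASCs only, and in the fit with no minimum its adjusted p was 0.000216 in limma. PTGS2 stood at 66.4 to 161 RPKM in these same IPFSC libraries. IL1RN, of the same list, had means of 1.84 RPKM in ScASCs and 0.468 in IPFSCs. It was not called (adjusted p = 0.242, and adjusted p = 0.0529 with the rabbit as a block, in limma). NFATC2, also listed, lay below the minimum, at 0.0138 to 0.179 RPKM in ScASCs and 0.334 to 0.494 in IPFSCs. In the fit with no minimum it was called higher in IPFSCs (adjusted p = 0.0189 in limma). The part of these genes in the level of PTGS2 was not tested. Over the 8 lists of other pathway genes together, 44 of the 66 genes in the table were tested, 1 was higher and 2 were lower in IPFSCs at an adjusted p under 0.05, and the median log2 difference was −0.02. The share called over all tested genes was 4.98%, so these few calls are not read as a result about the lists.

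Profiles near that of HPGD were sought among tested genes with a symbol only, and 12843 of the 20586 genes in the table have one. The nearest over the 8 libraries were LHX8, a LIM homeobox factor, ABI3BP, a matrix protein, and SGK1, a kinase induced by glucocorticoids and serum. Next came ARHGAP18, which turns off RhoA, and PTK2B, a tyrosine kinase related to focal adhesion kinase. Likeness was the root mean square difference of log2(RPKM + 1) after taking off each gene's mean over the 8 libraries, and it was 0.40, 0.47, 0.48, 0.52 and 0.54. All 5 were lower in IPFSCs, with log2 differences of −2.71 to −3.88, and in all 5 ScASC replicate 1 was the lowest ScASC library and IPFSC replicate 4 the highest IPFSC library. SGK1 had 51.7 to 107 RPKM over the ScASC libraries and 10.2 to 18.8 over the IPFSC libraries. These genes were chosen by this measure, so their differences are descriptions.

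**Figure D4:**
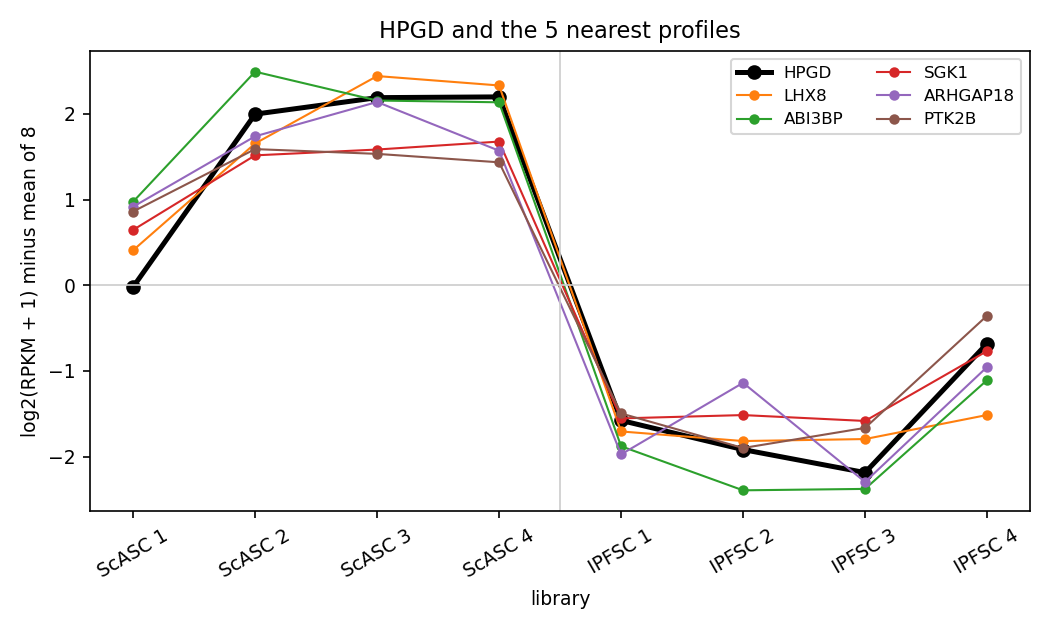
log2(RPKM + 1) of HPGD (thick black line) and of the 5 genes with the nearest profiles among tested genes with a symbol, each after taking off its mean over the 8 libraries, by library. All 6 lines lie higher in the ScASC libraries, with ScASC 1 lowest among the ScASCs and IPFSC 4 highest among the IPFSCs.

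Markers of other cell types that a fat culture could hold were read in the same libraries. The leukocyte genes PTPRC, CD163 and TYROBP are listed at 0 in all 8 libraries. The 9 macrophage and leukocyte markers summed to 11.8 to 22.6 RPKM in ScASCs and 13.5 to 27.9 in IPFSCs, most of it CD68. The 5 mast cell markers in the table summed to 0.0769 to 0.214 and 0.138 to 0.353 RPKM, and the 6 endothelial markers to 0.0148 to 0.214 and 0.0300 to 0.175. The 6 skeletal muscle markers summed to 0.587 to 1.13 RPKM in ScASCs and 1.06 to 2.55 in IPFSCs, and the 2 synovial lining markers to 1.73 to 6.73 and 7.14 to 7.79. That sum was nearly all HBEGF, whose own libraries overlapped, while CLIC5 was at 0 in ScASCs and at 0.237 to 0.436 RPKM in IPFSCs. The 4 epithelial markers summed to 1.56 to 63.8 and 1.01 to 6.07, led by KRT8, and the 4 adipocyte markers to 18.9 to 52.5 and 39.2 to 93.6, with ADIPOQ at 0.0971 to 2.04 RPKM. Most of the adipocyte sum was LPL, except in ScASC replicate 1, with LEP at 21.6 and LPL at 8.48 RPKM. The means of LPL were 24.4 RPKM in ScASCs and 62.0 in IPFSCs. Its adjusted p was 0.176 in limma, and 0.0225 with the rabbit as a block. The 10 stromal markers summed to 11359 to 16828 RPKM in ScASCs and 6884 to 10502 in IPFSCs, without overlap. Most of this sum was COL1A1, COL1A2 and COL3A1, of which COL3A1 was called lower in IPFSCs (adjusted p = 0.0461 in limma). That call was lost in the fit with no minimum RPKM (adjusted p = 0.197 in limma). In the same list CD44 was called higher, with means of 59.2 and 131 RPKM (adjusted p = 0.0173 in limma, range 0.00672 to 0.0626 with every alternative). LUM had means of 191 and 527 RPKM without overlap (adjusted p = 0.0575 in limma). With the rabbit as a block LUM and CD44 were called higher (adjusted p = 0.00902 for each in limma). COL1A1, COL1A2, COL3A1, NT5E and PDGFRB were called lower in that fit (adjusted p = 0.0217 to 0.0449 in limma). THY1, DCN and ENG were not called in it. The part of these markers in the HPGD difference was not tested.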

How the data were processed

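RNA was measured in 8 libraries made with a stranded mRNA kit. Per the study's methods, the authors aligned untrimmed paired-end reads with the Subread aligner to the rabbit build OryCun2.0, counted fragments over Ensembl genes (featureCounts), and converted the counts to RPKM. Deposited values are log2(RPKM + 1), read from the values, with 1e-05 in place of 0, and were turned back to RPKM. The authors' 4 columns of their own comparison (fold change, mean level and p-values from edgeR) were not used. Of 20595 rows, 9 repeated an identifier with identical values, leaving 20586 genes. Whether counting used strand is not given in the sources used here.

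The number of reads is unknown. Relative depth, from the ratio that 187 to 224 genes of low RPKM share with ScASC 1, was 0.825 to 1.00, and summed RPKM 467330 to 492341.

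The 11294 genes whose mean exceeded 1 RPKM in ScASCs or IPFSCs were tested with limma 3.58.1 in R 4.3.3, with a variance trend and no term but the cell type, and p-values were adjusted over all of them (Benjamini-Hochberg). The test was checked on simulated data. Alternatives were other pseudocounts (0.1 and 0.5), minima, scaling, no trend, the rabbit as a block and leaving out each library. Read ratios had exact binomial intervals (scipy 1.17.1).

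The study describes the cells as donor-matched, but no label ties a number to a rabbit. Across the tested genes, the deviations from the cell type mean correlated at 0.534, 0.550, 0.253 and 0.659 between equally numbered libraries, so numbers were taken as rabbits. ScASC replicate 3 correlated more, with 0.329, with IPFSC replicate 4.

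Members and lists were chosen with earlier results of these data known. Named are all rule genes in the table, other prostanoid genes above the minimum and list genes called. Also named are the 5 nearest profiles to HPGD among tested genes with a symbol. Further genes (FAAH, EPHX1, HPGDS, TBXAS1, IL1RN, NFATC2, ANXA1, CREB1, the markers and those beside the HPGD library pattern) were named after their values were seen.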

Additional observations from a re-analysis of the deposited data

Results flagged for a closer look

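In 100 groups of 4 libraries of the tested pathway genes, 6 had a library far from the others by Dixon's criterion (the gap to the nearest library over the group's range, at the 95% level), where chance flags about 1 in 20. HPGD in ScASC replicate 1, at 3.95 RPKM, was far below the other ScASC libraries (gap over range 0.909). In IPFSC replicate 4, EPHX1 at 20.3 RPKM, IL1RN at 1.02 RPKM, NFKB1 at 22.6 RPKM and SP1 at 26.2 RPKM were far above the other IPFSC libraries. EGR1 in ScASC replicate 4, at 65.6 RPKM, was far below the other ScASC libraries.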

How the results depend on the processing

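None of the 5 tested members besides HPGD was called under any of the 15 alternatives, and the replicate block changed no call of a member (adjusted p = 0.0743 for PTGFR with the rabbit as a block in limma, range 0.0743 to 0.710). The log2 difference of HPGD was −4.48 with a pseudocount of 0.1 and −3.72 to −2.98 when a library was left out. Signs turned for PTGS1 without ScASC replicate 4 (−0.041, in a range of −0.041 to 0.61 when a library was left out) and for PTGR1 without ScASC replicate 2 (0.037, in a range of −0.44 to 0.037). Of the other pathway genes, 5 were higher with the rabbit as a block and 2 with no minimum RPKM, against 1, and 0 to 2 were higher and 1 to 2 lower when a library was left out. By a fold change over 2 and an adjusted p under 0.05, 182 genes were higher and 141 lower over all tested genes, and 121 to 185 and 103 to 147 when a library was left out. Median-ratio scaling moved the median log2 fold change by −0.00061. SLCO2A1 and PTGER2 rest on few reads, and with a pseudocount of 0.1 their log2 differences were −1.63 and 0.90, against −0.43 and 0.24.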
